A study of Mus musculus with 5 samples.

Results

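The genes described are 8 basic helix-loop-helix (bHLH) transcription factors of the developing nervous system: the OLIG genes Olig1, Olig2 and Olig3, and the proneural and neuronal differentiation genes Neurog1, Neurog2, Neurod1, Neurod4 and Atoh1. They were chosen by symbol and not by level, but with earlier results of these data known. All 8 were found among the 25414 genes of the mouse RNA-seq files, and Olig1 and Olig2 passed the filter on low values. The samples were 2 replicates of neural stem cells (NSCs) and 3 replicates of STO cells. NSCs were primary cells from embryonic mouse cortex at passages 5 to 8, grown as a monolayer with EGF, bFGF, heparin and B27. STO cells are a long-established line of SIM mouse embryonic fibroblasts, resistant to thioguanine and ouabain, commonly used as feeder cells, and were past passage 30 in serum-containing medium. The labels give the strain C57BL/6 for both. The STO line is described as derived from SIM mouse embryos, so a shared genetic background cannot be assumed. Beyond the resistance of STO cells, no genetic change or drug treatment was named for either. The labels do not say whether the replicates were separate cultures, so p-values measure only the spread between these samples. Medium, passage and tissue of origin differed together with cell type and cannot be told apart from it. The same holds for any difference in genetic background.

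Factors with a bHLH domain bind DNA as dimers at short sequences named E-boxes, and the neural ones pair with the widely expressed E proteins. NEUROG, NEUROD and ATOH proteins are activators that drive progenitors into neuronal fates, NEUROG early and NEUROD later. OLIG1 and OLIG2 act in progenitors of the ventral neural tube and forebrain and are required in the oligodendrocyte lineage, and OLIG2 acts largely as a repressor. ID proteins block bHLH factors by taking up E proteins, and many HES and HEY proteins are effectors of Notch signalling that repress proneural genes.

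The 8 genes share part of the sequence that encodes the bHLH domain, and this stretch of 81 coding bases is printed because it is what makes them 1 family. Each is read 5′ to 3′ on the coding strand from the mm9 assembly, and capitals mark the 29 bases that are the same in all 8 genes.
Olig1, chr16:91270407-91270487, plus strand: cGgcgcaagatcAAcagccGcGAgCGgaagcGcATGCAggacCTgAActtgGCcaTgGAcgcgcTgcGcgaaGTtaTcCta
Olig2, chr16:91226972-91227052, plus strand: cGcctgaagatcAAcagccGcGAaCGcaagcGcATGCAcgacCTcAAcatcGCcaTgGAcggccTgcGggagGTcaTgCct
Olig3, chr10:19076690-19076770, plus strand: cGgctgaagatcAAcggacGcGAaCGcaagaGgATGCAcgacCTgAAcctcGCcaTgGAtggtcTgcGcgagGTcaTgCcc
Neurog1, chr13:56352931-56353011, minus strand: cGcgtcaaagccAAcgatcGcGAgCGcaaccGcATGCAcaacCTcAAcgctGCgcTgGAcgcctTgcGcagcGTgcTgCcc
Neurog2, chr3:127336986-127337066, plus strand: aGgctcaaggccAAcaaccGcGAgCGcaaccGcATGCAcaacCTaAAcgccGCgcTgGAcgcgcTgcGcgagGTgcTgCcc
Neurod1, chr2:79294808-79294888, minus strand: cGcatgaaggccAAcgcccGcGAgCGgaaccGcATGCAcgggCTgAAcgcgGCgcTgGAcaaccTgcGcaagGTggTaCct
Neurod4, chr10:129708115-129708195, minus strand: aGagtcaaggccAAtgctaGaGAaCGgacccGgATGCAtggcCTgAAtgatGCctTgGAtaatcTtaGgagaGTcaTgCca
Atoh1, chr6:64679788-64679868, plus strand: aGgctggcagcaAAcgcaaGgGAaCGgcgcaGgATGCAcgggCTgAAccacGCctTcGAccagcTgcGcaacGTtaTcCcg

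Within the stretch, Olig2 and Olig3 were identical at 86.4% of bases and Olig1 and Olig2 at 79.0%. Neurog1 and Neurog2 were identical at 84.0%. Identity between an OLIG gene and one of the other 5 genes ran from 56.8% to 75.3% over 15 pairs, with a median of 65.4%. The OLIG genes were therefore closer to each other in these bases, at 76.5% to 86.4%, than to any of the others.

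**Figure D1:**
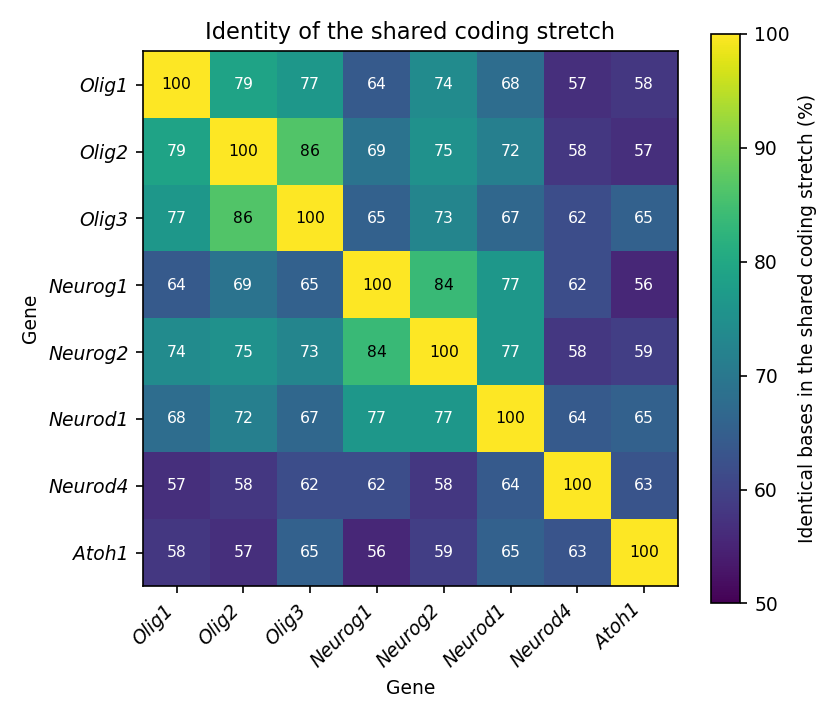
Percent of identical bases in the 81-base stretch for each pair of the 8 genes; rows and columns are genes and each square gives the percentage. The 3 OLIG genes form a block of 76.5% to 86.4%, and the pair of Neurog1 and Neurog2 reaches 84.0%.

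Olig2 was also the gene the study amplified by RT-PCR in its NSCs, with a forward primer in the 5′ UTR at transcript bases 38 to 54 and a reverse primer in the coding sequence at bases 600 to 616. The primers, printed because they show which piece of the transcript that product covers, each match the Olig2 transcript once and enclose 579 bases that include the shared stretch.
Olig2 forward primer: accgagccaacaccagc
Olig2 reverse primer: gcagcgtggcgatcttg

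In the annotation of that assembly, Olig1, Olig3, Neurog1 and Atoh1 have 1 exon and Olig2, Neurog2, Neurod1 and Neurod4 have 2. Olig2 (chr16:91225795-91228922) and Olig1 (chr16:91270014-91272184) lie on chromosome 16 with 41091 bases between them. The other genes are each alone on their chromosome or far from another member. They are Olig3 (chr10:19076345-19078410), Neurod4 (chr10:129705208-129717310), Neurog1 (chr13:56351860-56353524), Neurog2 (chr3:127336063-127338549), Neurod1 (chr2:79292798-79296793) and Atoh1 (chr6:64679119-64681239). RefSeq promoter windows (GRCm38.p6) were matched for 7 of the 8 genes, all but Olig1. In the 250 bases before the start, the E-box letters CANNTG stood in 2 of the 7 (Olig3 and Neurod1), against 66.2% of 32851 windows of that length, both strands searched. Its forms CAGATG and CAGCTG stood in none of the 7, against 14.4% and 13% of windows, and the N-box letters CACNAG stood in 1 of the 7 (Neurod4), against 36.7%. GC content ran from 51.2% (a Neurod4 window) to 71.2% (Neurog1), with a median of 52.4% over all windows. The windows were not matched for GC content, and depletion of these letters was not tested.

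Values are FPKM, fragments per kilobase of transcript scaled to the depth of the library, as deposited for 40201 RefSeq transcripts and summed here per gene, so levels of different genes may be compared per length. The deposited confidence intervals imply 15223341 to 22271922 fragments per sample, and a level resting on 3 fragments is used here as the floor of detection, for counting error only. Replicates correlated across genes at 0.994 in NSCs and 0.994 to 0.995 in STO cells on log2(FPKM + 1), and NSCs with STO cells at 0.578 to 0.585. The labelled cell types were checked against markers. All 7 NSC markers were higher in NSCs, with a summed level of 3341 to 3564 FPKM against 0.368 to 0.501 in STO cells, where Sox2, Pax6, Sox1 and Fabp7 were listed at 0. All 6 fibroblast markers were lower in NSCs (1.10 to 1.62 against 1032 to 1110 FPKM). An exact 0 can be a failed estimate in such files: Elob, a subunit of elongin used by every cell, was listed at 0 in all 3 STO samples and at 185 and 217 FPKM in NSCs. Hence such genes are said only to be listed at 0. No fold is given against them, and a fitted difference on the log2(FPKM + 1) scale against a listed 0 is neither a fold nor a bound.

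Olig1 and Olig2 were high in both NSC replicates and listed at 0 in all 3 STO samples. Olig1, which acts with Olig2 in oligodendrocyte maturation, had 964 and 1108 FPKM in NSC replicates 1 and 2 (mean 1036 ± 102, SD, n = 2). Olig2, which specifies oligodendrocyte precursors and motor neurons, had 499 and 493 FPKM (mean 496 ± 4.14, SD, n = 2). Every NSC value of both genes was above every listed STO value, as it was for 28.7% of the 25414 genes. These levels rested on 64649 and 81271 implied fragments for Olig1 and on 37544 and 40750 for Olig2. A count of 3 fragments would have given at most 0.0621 FPKM for Olig1 and 0.0553 for Olig2 in the shallowest STO sample. In bulk RNA, fewer cells of a type and less RNA per cell cannot be told apart.

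The difference was tested with limma on log2(FPKM + 1) across the 12292 genes with a mean of at least 1 FPKM in either cell type, two-sided, with Benjamini-Hochberg adjustment. On that scale the difference, NSC minus STO, was 10.01 for Olig1 (SE 0.0704, adjusted p = 3.49e-09) and 8.96 for Olig2 (SE 0.0478, adjusted p = 3.47e-09). With STO samples listed at 0, its size is set by the level in NSCs and by the pseudocount of 1. Olig1 and Olig2 met the filter through their NSC level alone, so a called difference could only be higher in NSCs. Of the 8 genes, 2 were tested, 2 were higher in NSCs and 0 were lower. Among all tested genes, 43.7% were higher and 41.9% lower, together 85.6%. Most genes thus differed between these cell types, and the call itself does not set Olig1 and Olig2 apart. An exact permutation test over the 10 arrangements of the 5 samples gave p = 0.2 for each, two-sided as the doubled one-sided p, the smallest this form of the test can give, so it could not pass 0.05. By level, 17 of the 25414 genes (0.0669%) were above 100 FPKM in both NSC samples and listed at 0 in every STO sample. This cut was not among the planned results and was set with earlier results known. The count describes levels and is not a test. Olig1 and Olig2 were among these 17, as were Fabp7, Sox2 and Elob, the last with the doubtful 0 given above. The count rests on the listed 0 and not on the size of the difference: Ckb, with 2691 and 2599 FPKM in NSCs and 0.209 to 0.335 in STO cells, is not in it.

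Among all genes, Olig1 ranked 58 and 39 in NSC replicates 1 and 2 and took 0.218% and 0.248% of the summed FPKM. Olig2 ranked 131 and 132 and took 0.113% and 0.111%. Olig1 was the more abundant of the pair per length in both replicates, at 1.93 and 2.24 times the Olig2 level (mean 2.09 ± 0.222, SD, n = 2).

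**Figure D2:**
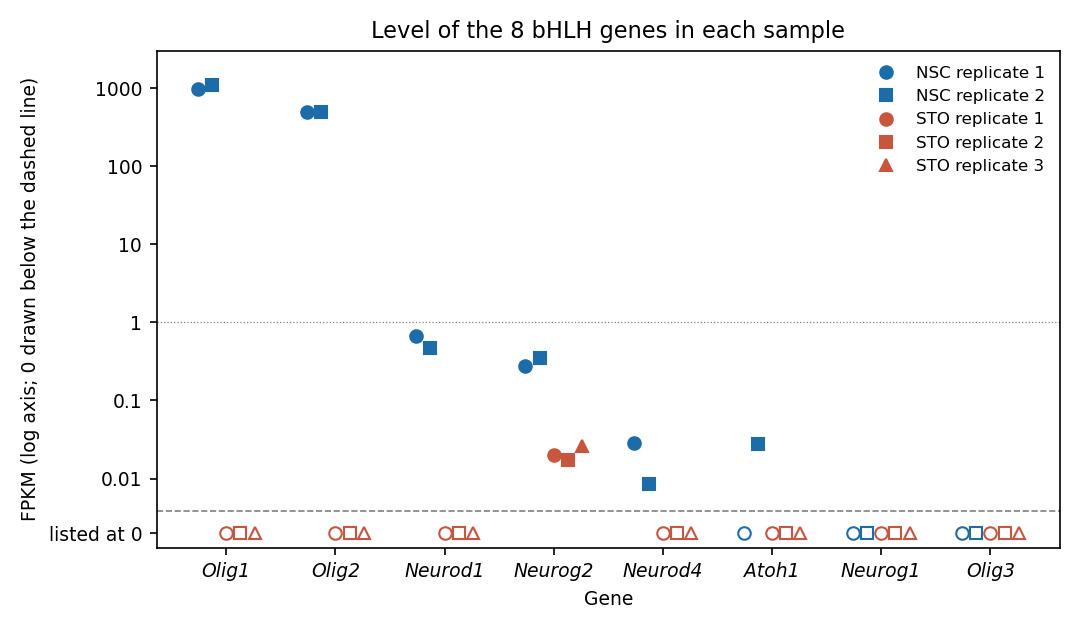
FPKM of each of the 8 genes (x axis) in each sample on a log axis; blue marks are the 2 NSC and red marks the 3 STO replicates, open marks below the dashed line are values listed at 0, and the dotted line is 1 FPKM. Olig1 and Olig2 stand at means of 1036 and 496 FPKM in NSCs, and none of the other 6 genes reaches 1 FPKM in any sample.

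The 5 proneural and neuronal differentiation genes and Olig3 stayed below 1 FPKM in every sample, and Neurod1 and Neurog2 were the ones with more than a few fragments in NSCs. Neurod1, which promotes terminal neuronal differentiation, had 0.663 and 0.466 FPKM in NSCs (mean 0.564 ± 0.140, SD, n = 2), from 51.9 and 39.5 implied fragments, and was listed at 0 in all 3 STO samples. Its deposited intervals were 0.479 to 0.847 and 0.317 to 0.614 FPKM, both well above the level of 3 fragments in STO cells (0.0353 to 0.0534 FPKM). Neurog2, which initiates neurogenesis in cortical progenitors, had 0.273 and 0.353 FPKM in NSCs (mean 0.313 ± 0.0573, SD, n = 2), from 18.9 and 26.9 fragments. In STO samples 1 to 3 it had 0.0200, 0.0174 and 0.0262 FPKM (mean 0.0212 ± 0.00452, SD, n = 3), from 1 or 2 fragments each. The NSC values of Neurog2 were above all STO values, with 46 fragments summed over NSCs against 4 over STO cells. Scaled to the depth of the 2 NSC and 3 STO samples, the ratio of fragment rates was 14.5. Its exact 95% interval was 5.28 to 55.3, for counting error only.

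Both genes were under the filter of the test. Without any filter, limma put Neurod1 higher in NSCs by 0.64 on the log2(FPKM + 1) scale (SE 0.0550, adjusted p = 0.000196) and Neurog2 by 0.36 (SE 0.0305, adjusted p = 0.000184), where 37% of 17724 genes were higher in NSCs and 33.4% lower, together 70.4%. With a filter of 0.1 FPKM both passed too, beside 43.8% of 14597 genes higher and 39.7% lower, together 83.5%. Both met that filter through their NSC level alone, so a call could only be higher in NSCs. The exact permutation p was 0.2 for each.

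Neurod4 and Atoh1 were at or below the level of 3 fragments. Neurod4, a neuronal differentiation factor that often follows the neurogenins, had 0.0284 and 0.00864 FPKM in NSCs and was listed at 0 in STO cells. Its higher NSC value came from 2.21 implied fragments over 3 transcripts. Atoh1, the factor of cerebellar granule neuron and hair cell precursors, had 0.0274 FPKM in NSC replicate 2, from 1.99 fragments, and 0 in the other 4 samples. Without the filter neither passed (adjusted p = 0.200 for Neurod4 and 0.377 for Atoh1 by limma), so no difference was detectable at this depth.

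Olig3, an OLIG gene of the dorsal hindbrain and spinal cord, and Neurog1, the neurogenin of many sensory and cortical progenitors, were listed at 0 in all 5 samples. Of all genes, 30.3% were listed at 0 in every sample. Every NSC value was above every STO value for 5 of the 8 genes (Olig1, Olig2, Neurog2, Neurod1 and Neurod4), against 28.7% of the 25414 genes. The order of levels in NSCs was therefore Olig1, Olig2, Neurod1, Neurog2, Neurod4 and Atoh1, then Olig3 and Neurog1, listed at 0. The ranges of replicate values of neighbours in this order did not overlap down to Neurog2 against Neurod4, while those of Neurod4 and Atoh1 overlapped. The deposited intervals of Neurod1 and Neurog2 overlapped in NSC replicate 2 (0.317 to 0.614 and 0.217 to 0.490 FPKM). In NSC replicate 1 they did not (0.479 to 0.847 and 0.147 to 0.398 FPKM). In STO cells only Neurog2 was above 0, within 2 fragments per sample.

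Other neural bHLH activators were examined beside the 8 genes. Atoh8, a divergent ATOH relative found in many tissues, was lower in NSCs, with 0.0675 and 0.160 FPKM in NSCs and 8.96, 7.86 and 8.39 in STO cells, a difference of -3.08 (SE 0.0718, adjusted p = 9.95e-08 by limma). On the same list, 10 genes, Neurod2, Neurod6, Neurog3 and Ptf1a among them, were at or below 0.193 FPKM in every sample.

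All 3 E proteins, the dimer partners of these factors, were expressed in both cell types. Tcf4 had 97.1 and 96.7 FPKM in NSCs and 27.5, 29.5 and 23.9 in STO cells, and was higher in NSCs by 1.81 (SE 0.0911, adjusted p = 3.75e-06). Tcf12 was higher by 0.91 (76.8 ± 2.44 in NSCs against 40.4 ± 0.377 FPKM, SD, n = 2 and 3). Tcf3 was lower by a difference of -0.50 (40.6 ± 3.41 against 57.7 ± 3.47 FPKM). Over the 3 genes, levels in STO cells ran from 23.9 to 61.7 FPKM.

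Of 11 listed ID, HES and HEY genes, 9 were tested, 7 were higher and 2 lower in NSCs. The median difference was 1.31, against 0.023 over all tested genes. Hey1 (5.35), Hes5 (4.55) and Hes1 (2.40) were the farthest above STO cells. Hes5, a Notch effector of neural progenitors, had 23.3 and 22.2 FPKM in NSCs and 0, 0.0304 and 0 in STO cells. The ID genes were split. Id1 fell from 110, 88.2 and 102 FPKM in STO samples 1 to 3 to 6.74 and 7.49 in NSCs (difference -3.64, adjusted p = 2.44e-07 by limma), and Id4 was lower by a difference of -2.35. Id3 was higher by 1.07, and Id2 by 0.28, with 41.8 and 50.3 FPKM in NSCs against 39.4, 36.7 and 37.2 in STO cells. The call for Id2 (adjusted p = 0.0241) was lost without NSC replicate 2, STO replicate 2 or STO replicate 3 (adjusted p = 0.0974, 0.0619 and 0.0612 by limma).

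Of 13 listed targets of proneural factors and genes of early neuronal differentiation, 11 were tested, 10 were higher and 1 lower in NSCs, with a median difference of 2.51. They included the Notch ligand genes Dll3, with 20.0 and 20.2 FPKM in NSCs (difference 4.38), and Dll1, with 12.1 and 12.9 FPKM (difference 3.75). The neuronal RNA-binding protein genes Elavl3 and Elavl4 were higher by 4.59 and 4.26. Elavl4 was listed at 0 in every STO sample. Rnd3, a small GTPase gene also widely used outside the brain, was the 1 lower gene (difference -1.68, 7.55 and 7.59 against 25.5 to 28.1 FPKM). Eomes and Tbr1, the genes of cortical intermediate progenitors and early neurons that follow Neurog2, were under the filter. Eomes was listed at 0 in both NSC samples and had at most 0.0212 FPKM in STO cells. Tbr1 was listed at 0 and 0.0146 FPKM in NSCs. Its STO values were low but higher, at 0.334, 0.243 and 0.198 FPKM.

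Neuron markers were uneven beside these genes. Over 6 markers the summed level was 115 FPKM in both NSC samples and 12.3 to 12.9 in STO cells, of which Map2 gave 101 ± 1.12 (SD, n = 2) in NSCs. Of 4 tested, 3 were higher (Map2, Snap25 and Syt1). Tubb3 did not pass, with means of 8.69 FPKM in NSCs and 8.30 in STO cells (difference 0.058, adjusted p = 0.477 by limma). Rbfox3, Stmn2 and Snap25 were listed at 0 in STO cells. In NSC replicates 1 and 2, Snap25 had 3.03 and 3.22 FPKM. Rbfox3 (0.624 and 0.405 FPKM) and Stmn2 (0.100 and 0.0610 FPKM) were low there and under the filter. The part of neurons in the results was not tested.

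Of 10 listed genes of the oligodendrocyte lineage, in which OLIG factors act, all were tested, 9 were higher and 1 lower in NSCs, and the median difference was 3.65. Sox8 had 105 and 114 FPKM in NSCs against 0.129 to 0.281 in STO cells (difference 6.53). Mbp, a myelin gene, had 83.4 and 88.3 against 0.0460 to 0.0722 FPKM (difference 6.35). Gpr17, a receptor of committed precursors, had 44.4 and 43.6 against at most 0.0149 FPKM (difference 5.48). Nkx2-2, a homeobox gene expressed next to Olig2 in the ventral neural tube, had 18.2 and 20.3 FPKM and was listed at 0 in STO cells, and Sox10, the lineage factor of all oligodendrocyte stages, had 8.66 and 10.2 FPKM against at most 0.0163.

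The exception was Pdgfra, the receptor gene that marks oligodendrocyte precursors and is also a fibroblast gene. It had 30.4 and 30.1 FPKM in NSCs and 344, 355 and 344 in STO cells, and was lower in NSCs by a difference of -3.48 (SE 0.0510, adjusted p = 1.46e-08). Cspg4, the other precursor surface marker, had 24.8 and 26.3 FPKM in NSCs against 4.09 to 4.44 and was higher by 2.33. Astrocyte markers were higher in NSCs too, 4 of 4, with a summed level of 70.4 to 71.4 against 0.242 to 0.432 FPKM. Microglial and endothelial markers summed to at most 0.0390 and 0.503 FPKM in NSCs. The part of other glial cells in these values was not tested. Over the lists, the shares called can be read against 43.7% higher and 41.9% lower among all tested genes.

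**Figure D3:**
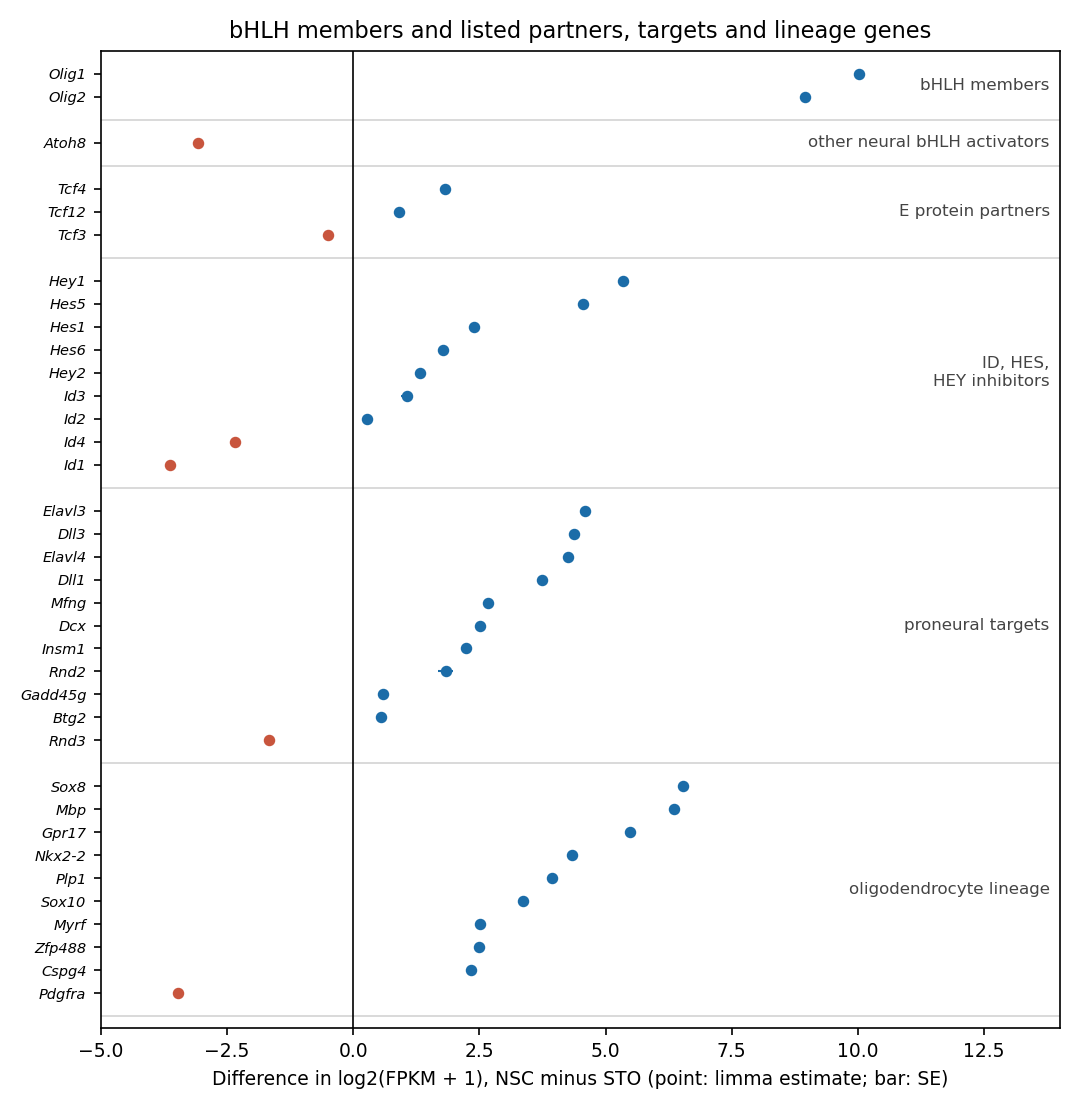
Difference in log2(FPKM + 1), NSC minus STO, for Olig1, Olig2 and tested genes of 5 lists (y axis); points are limma estimates, bars their SE, blue points higher and red points lower in NSCs. Olig1 and Olig2 lie farthest to the right at 10.01 and 8.96, and the lineage list runs from 6.53 for Sox8 to -3.48 for Pdgfra.

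None of the other tested neighbours of the OLIG pair on chromosome 16 was higher in NSCs. Within 200 kb of Olig2 lie Olig1 and 4 other genes. Paxbp1 had 8.66 ± 0.758 FPKM in NSCs (SD, n = 2) and 13.7 ± 0.557 in STO cells (SD, n = 3), and was lower in NSCs (difference -0.61, adjusted p = 0.00023 by limma). Il10rb, a cytokine receptor gene, was lower as well (2.43 ± 0.481 against 12.1 ± 0.499 FPKM, difference -1.94). Ifnar2, an interferon receptor gene, was near the threshold (20.2 ± 2.62 against 23.6 ± 0.894 FPKM, difference -0.22, adjusted p = 0.0497), and its call was lost in 13 of 14 alternatives, among them the fits without NSC replicate 1 (adjusted p = 0.221 by limma) and without each STO replicate in turn (0.0679 to 0.123). Both untested neighbours had low values that were higher in each NSC than in each STO sample. 4932438H23Rik had 0.225 and 0.546 FPKM in NSCs and 0.0728, 0.127 and 0.0119 in STO cells, and A930006K02Rik, within 200 kb of Olig1, had 0.123 and 0.672 against 0.0570, 0.0497 and 0.112.

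**Figure D4:**
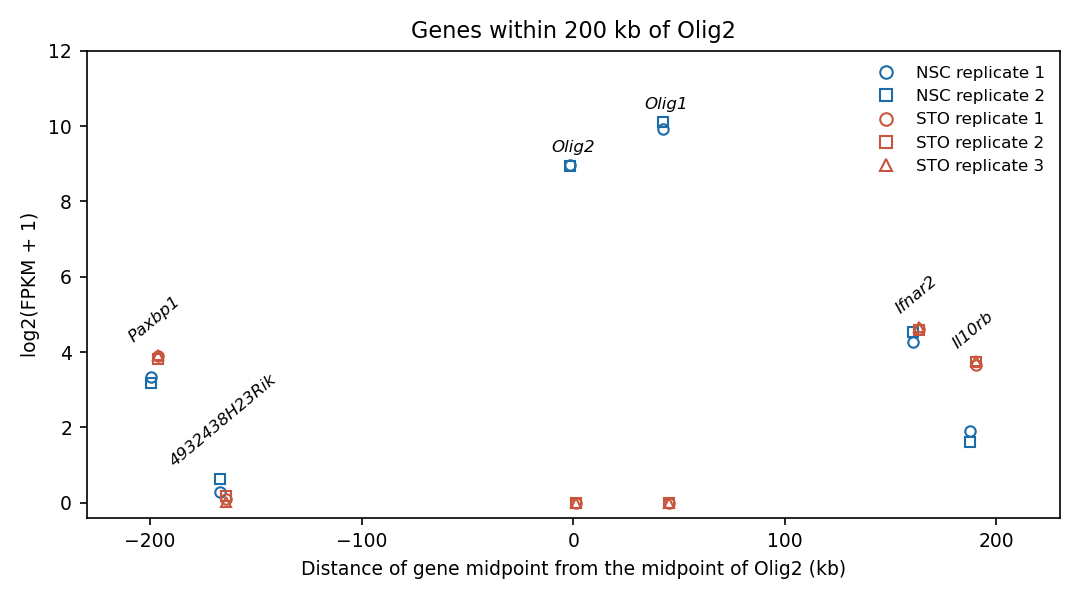
log2(FPKM + 1) of the genes within 200 kb of Olig2 (y axis) against the distance of each gene's midpoint from that of Olig2 in kb (x axis); blue marks are NSC and red marks STO replicates, set slightly apart sideways. Olig1 and Olig2 are near 10 and 9 in NSCs and listed at 0 in STO cells, while Paxbp1, Ifnar2 and Il10rb are at or above their NSC level in STO cells.

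Around the other genes, Olig3 and Neurod4 had no gene within 200 kb that passed the filter. For Neurod4, 8 of 11 neighbours were listed at 0 in every sample, all of them olfactory or vomeronasal receptor genes. Near Neurog1, which was itself listed at 0, the chemokine gene Cxcl14 had 20.2 and 19.6 FPKM in NSCs and was listed at 0 in STO cells (difference 4.38), and the histone variant gene Macroh2a1 was higher by 1.20. Near Neurog2, Ank2 was higher in NSCs (59.8 ± 2.57 against 9.68 ± 0.749 FPKM, SD, n = 2 and 3) and Alpk1, Ap1ar, Tifa, Zgrf1 and Larp7 were lower. Larp7 (difference -0.23) lost its call without either NSC replicate (adjusted p = 0.0892 and 0.0533 by limma). Itga4 near Neurod1 was higher in NSCs by 1.58.

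The genes whose log2(FPKM + 1) values over the 5 samples lay nearest to those of Olig2, by Euclidean distance, were Bex2 (0.217), Mt3 (0.702), Sox2 (1.09), Igfbp3 (1.16) and Nnat (1.33). Bex2 had 462 and 487 FPKM in NSCs and at most 0.129 in STO cells. Nearest to Olig1 were Igfbp2 (0.569), Olig2 (1.5), Bex2 (1.60), Ckb (2.03) and Fabp7 (2.11). Olig1 was not among the 5 nearest to Olig2, although Olig2 was the second nearest to Olig1.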

How the data were processed

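RNA-seq of 2 NSC and 3 STO samples was used, grouped by their labels. The authors made stranded mRNA libraries from total RNA, aligned them to mm9 with HISAT2 (given as 4.8.2 in the submitters' processing notes) and deposited Cufflinks 2.2.1 FPKM values with confidence bounds, 1 file per sample. Whole reads could not be recovered: at a tolerance of 0.05, 63.8% to 67.1% of low values were whole. Between 0 and 20 transcripts per sample were flagged by Cufflinks as not OK, and none belonged to the 8 genes.

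RefSeq identifiers were matched to symbols through a GRCm38.p6 table used for names only (39951 of 40201 transcripts), and FPKM summed per symbol. Fragments were implied from FPKM divided by its SD, taking the deposited upper bound as 2 SD above, and squared. Genes with a mean of at least 1 FPKM in NSCs or STO cells were tested on log2(FPKM + 1) with limma's moderated test, eBayes taking a mean-variance trend, at an adjusted p under 0.05 (R 4.3.3, limma 3.58.1), after the script was tested on simulated data. Differences on this scale understate low genes. Other steps used Python 3.11.15, pandas 2.3.3, numpy 2.4.6, scipy 1.17.1, Biopython 1.88 and matplotlib 3.10.9.

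The 8 genes and all lists were chosen with earlier results of these data known. Named genes were the 8, their lists, markers, neighbours within 200 kb and the 5 nearest in pattern to Olig1 and Olig2. The shared stretch was found as an ungapped coding DNA window in place of the protein alignment first planned. Alternatives changed the pseudocount, filter, scaling, trend, replicate block, samples, transcripts and fold threshold. Some genes that the naming rule covers are not reported here.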

Additional observations from a re-analysis of the deposited data

How the results depend on the processing

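Olig1 and Olig2 stayed higher in NSCs under every alternative run, at 9.91 to 10.11 and 8.95 to 8.97 when 1 sample was left out; with an NSC sample out, the lone one is assumed to vary like STO cells. With a filter of 0.1 FPKM or none, Neurog2 (0.36) and Neurod1 (0.64) also passed, making 4 members higher; other neural bHLH activators higher became 2 and 5 (Atoh7, then Ascl2, Bhlhe22 and Neurod6 among them), and proneural targets lower became 2 in both (with Tbr1). With an absolute difference of at least 1 required, 2617 genes were higher and 2103 lower, and E proteins 1 and 0. Leaving out samples gave 4900 to 5253 genes higher and 4704 to 5065 lower, and 1.93 to 2.24 for the Olig1 to Olig2 ratio. Ranked among genes above 0, Olig1 and Olig2 stood at 0.274% and 0.742% from the top. Ifnar2 turned to 0.12 with the highest transcript alone, and Tubb3, never called, ranged from -0.0245 without NSC replicate 1 to 0.14 without NSC replicate 2. The cause was not tested.

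Replicate numbers are shared by the cell types, but deviations of same-numbered samples correlated at 0.011 and 0.060, so they were taken to share only a number. The replicate block was fitted with STO replicate 3 as its own level, and on replicate numbers 1 and 2 alone. In that order, 5252 and 5253 genes were higher and 4994 and 4990 lower. Olig1 and Olig2 each had an adjusted p by limma of 1.52e-07 in the former fit and 1.17e-07 in the latter. Id2, Larp7 and Ifnar2 passed in neither. Depth limits Neurod4 and Atoh1, whose levels rest on at most 3 fragments per sample.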
